A study of Danio rerio with 4 samples.

Results

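This account follows 10 genes that young blood vessel cells use to build vessels, mmrn2b, egfl7, tie1, tmem88a, tmem88b, rasip1, she, crip2, ramp2 and clec14a, in whole zebrafish embryos at the 6-somite stage. They were taken by gene symbol, and all 10 were found among the 20390 genes listed. All embryos carried the bns298 transgene, hsp70l:loxP-STOP-loxP-npas4l, which continues with GGGGGLSRS, P2A and mCherry. Heat shock can make its hsp70l promoter drive npas4l and the mCherry reporter once Cre recombinase has cut out the stop cassette lying between the loxP sites. The embryos were raised at 28 °C and given a heat shock of 1 h at 37 °C. RNA came from 2 samples of embryos that received Cre at the one-cell stage (Cre-injected) and from 2 samples of uninjected embryos of the same line and heat treatment. No injected embryos lacking the transgene were analysed here, so what npas4l, Cre and the act of injecting contribute cannot be told apart. The hsp70l promoter is not restricted to one cell type, and the labels do not say how many embryos were pooled or whether the groups shared parents.

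Npas4l is a bHLH-PAS transcription factor that stands at the top of the pathway by which mesoderm becomes endothelium and blood. Among the genes it is known to switch on are etv2 and tal1, and Etv2, an ETS-family factor, in turn opens much of the endothelial programme. The genes described here belong to the working end of that programme: secreted and matrix proteins, surface receptors, membrane inhibitors of Wnt signalling, and proteins of the cell interior that shape junctions and lumens. Mmrn2b was chosen by its measured increase in this very contrast, and the others were picked with results of the same contrast in view. Their differences between Cre-injected and uninjected embryos are therefore given as a description, with intervals and with the calls of the fit over all genes but without p-values, and support nothing by themselves.

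Values are normalised reads per gene. They summed to 8933474 and 9861419 in the Cre-injected libraries and to 9093935 and 9479827 in the uninjected ones. Fold changes are on the log2(value + 1) scale, Cre-injected over uninjected, from limma fitted to 16754 genes. The threshold for a call was a Benjamini-Hochberg adjusted p under 0.05. A bare number in brackets after a left-out library is a log2 fold change. Nothing in the labels says that the samples of a group came from separate clutches, so the spread between them may be technical. Transcripts of npas4l, from the endogenous gene and the transgene together, stood at 710 and 808 in Cre-injected libraries and at 370 and 279 in uninjected ones. Those of etv2 stood at 416 and 490 in Cre-injected libraries, against 236 and 144 in uninjected ones, a log2 fold change of 1.29 ± 0.21 (SE; adjusted p = 0.00238). The promoter's own gene, hsp70l, had 66 and 280 in Cre-injected and 33 and 26 in uninjected libraries. Its value is uncertain, as the Cre-injected libraries lay 2.07 apart on the log2 scale, a gap wider than that of 99.4% of genes in the fit. Reads shared with near-identical hsp70 genes may add to this, which was not tested. The call of hsp70l (adjusted p = 0.0494) was lost with the pseudocount of 4 (adjusted p = 0.0682), with no filter (0.135) and with a minimum of 20 (0.0547). Without uninjected replicate 1 or 2 the call was lost too, at fitted folds of 5.08 and 4.04. The fitted fold of hsp70l was 4.53 with all libraries. It was 9.27 when Cre-injected replicate 1 was left out and 2.21 when Cre-injected replicate 2 was.

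One gene of the 10 separated from the rest. Mmrn2b was 5.35-fold higher in Cre-injected embryos, and the other 9 genes differed by at most 2.1-fold in either direction. Of the 10, 9 reached 10 normalised reads in at least 2 libraries and entered the fit, all but rasip1. Mmrn2b was called higher, none of the other 8 in the fit was called in either direction, and over all genes 6.35% were called higher and 6.19% lower. Among those 9 genes the log2 fold changes ran between -0.78 and 2.5 with a median of -0.26, beside a median of 0.00 over all genes. Summed over all but mmrn2b, the effectors gave 517 and 500 normalised reads in Cre-injected libraries and 601 and 550 in uninjected ones.

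**Figure D1:**
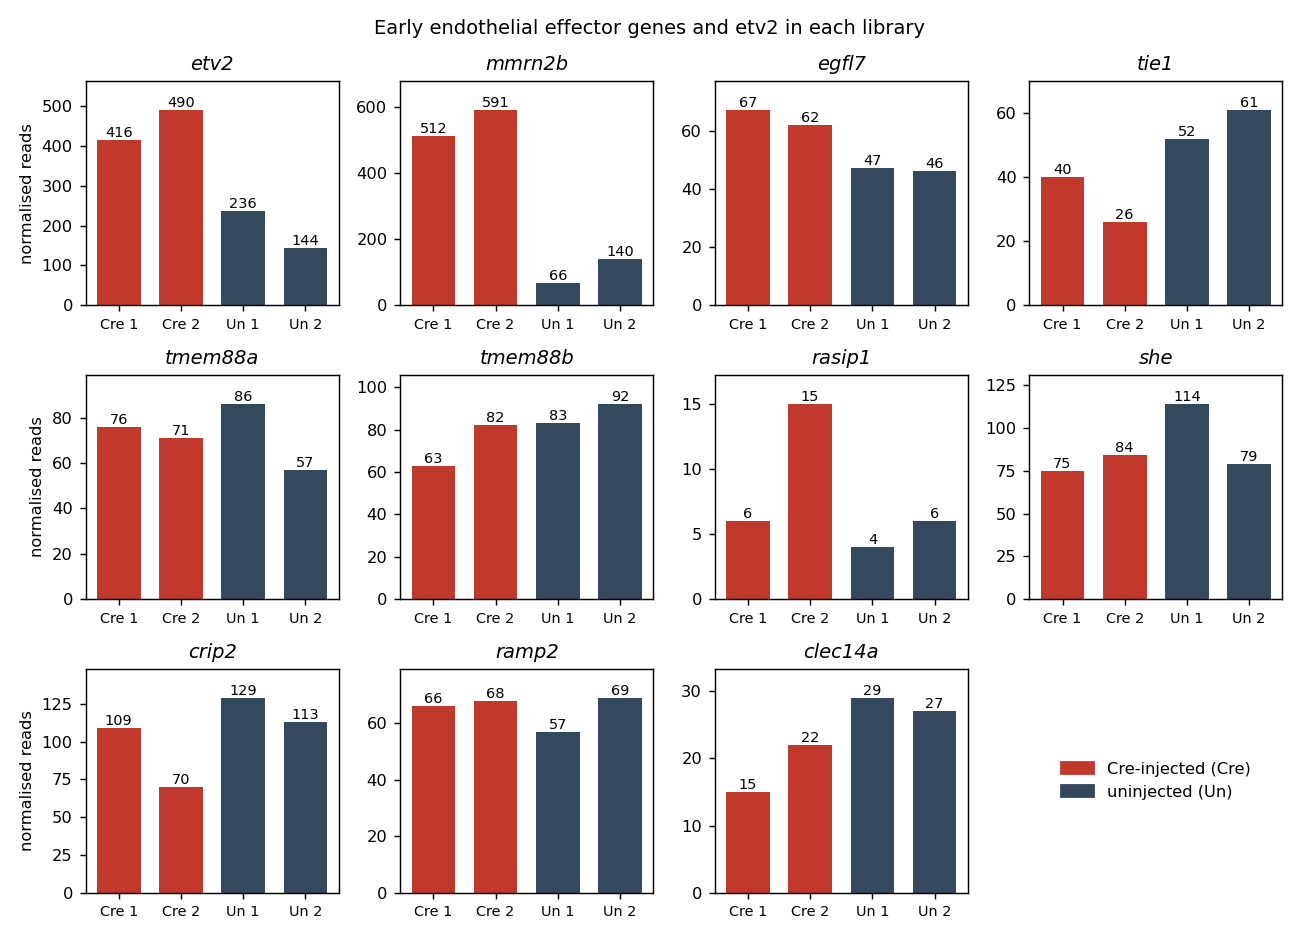
Normalised reads (y axis, from 0, a separate scale per gene) of etv2 and the 10 effector genes in the 2 Cre-injected (Cre) and 2 uninjected (Un) libraries; each bar is 1 library. Mmrn2b stood at 512 and 591 in Cre-injected libraries, against 66 and 140 in uninjected ones, while tie1, tmem88b, crip2 and clec14a were lower in both Cre-injected libraries than in either uninjected one. The latter arrangement was shown by 28.8% of all genes in the fit. None of these genes was called lower, and tmem88b was separated only by 82 against 83.

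The secreted and matrix proteins are mmrn2b and egfl7. Mmrn2b (chromosome 12, 25945560 to 25948479, plus strand, GRCz11) encodes multimerin 2, a glycoprotein of the EMILIN family that endothelial cells lay into their matrix. It had 512 and 591 normalised reads in the Cre-injected libraries, against 66 and 140 in the uninjected ones. The groups were far apart, and the lower Cre-injected library was above the higher uninjected one. The mean was 551.5 ± 55.9 in Cre-injected and 103 ± 52.3 in uninjected libraries (SD, n = 2 each), and the log2 fold change was 2.5 ± 0.29 (SE; 95% interval 1.86 to 3.15). Only 47 of the 16754 genes in the fit had a larger one. The ratio of summed reads, 5.35, had a 95% exact interval of 4.61 to 6.24, which covers counting error only.

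The size of the mmrn2b difference depended on which uninjected library it was set against. The uninjected libraries lay 1.07 apart on the log2 scale, a gap wider than that of 96.2% of genes in the fit, and the Cre-injected libraries lay 0.21 apart. The log2 fold change was 1.97 without uninjected replicate 1 and 3.04 without uninjected replicate 2, with the call kept in both. With Cre-injected replicate 1 left out it was 2.61, and with Cre-injected replicate 2 left out 2.40. The call was lost in both of those fits. There the gene's own spread comes from the uninjected pair alone, and limma draws it toward that of genes of similar level.

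Egfl7 (chromosome 21, 7228467 to 7265219, minus strand) encodes a secreted protein with EGF-like domains that endothelial cells release and that acts in vessel tube formation. It had 67 and 62 normalised reads in Cre-injected libraries, against 47 and 46 in uninjected ones. It was the only other tested effector with both Cre-injected libraries above both uninjected ones, an arrangement shown by 28.0% of all genes in the fit. The log2 fold change was 0.46 ± 0.27 (SE; 95% interval -0.12 to 1.04), and it was not called. Leaving out any 1 library moved it between 0.41 and 0.52.

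The receptors leaned the other way or stood level. Tie1 (chromosome 6, 33979523 to 34008901, minus strand), a receptor tyrosine kinase of endothelium that works beside the angiopoietin receptor Tek, had 40 and 26 normalised reads in Cre-injected libraries and 52 and 61 in uninjected ones. The groups did not overlap, as in the 28.8% of all genes whose Cre-injected libraries were both the lower ones. Its log2 fold change, -0.78 ± 0.32 (SE; 95% interval -1.49 to -0.08), was not called over all genes, but it was called without Cre-injected replicate 1, at -1.09. Clec14a (chromosome 17, 10242166 to 10243888, plus strand), a C-type lectin of the endothelial surface whose human counterpart binds multimerin 2, had 15 and 22 in Cre-injected libraries, against 29 and 27 in uninjected ones. These groups did not overlap either, and with so few reads the log2 fold change was loosely fixed, -0.60 ± 0.40 (SE; 95% interval -1.47 to 0.28). Ramp2 (chromosome 3, 36836711 to 36846496, minus strand), the accessory protein that in mammals turns the calcitonin receptor-like receptor into a receptor for adrenomedullin, had 66 and 68 in Cre-injected libraries and 57 and 69 in uninjected ones. Here the groups overlapped, with a log2 fold change of 0.09 ± 0.25 (SE; 95% interval -0.46 to 0.64).

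The paralogues tmem88a and tmem88b encode membrane proteins that bind Dishevelled and dampen Wnt signalling. Tmem88a (chromosome 10, 22771176 to 22780157, plus strand) has been linked to heart and blood formation in zebrafish. Tmem88a had 76 and 71 normalised reads in Cre-injected libraries and 86 and 57 in uninjected ones. Both Cre-injected values fell between the uninjected ones, and the log2 fold change was 0.07 ± 0.27 (SE). Its sign turned to -0.22 without uninjected replicate 2. Tmem88b (chromosome 7, 21787507 to 21806454, plus strand) had 63 and 82 in Cre-injected libraries, against 83 and 92 in uninjected ones. The groups were separated by 1 read, and the log2 fold change was -0.28 ± 0.24 (SE). Tmem88b lies inside the listed interval of an antisense gene, BX005336.1, which had 7 and 8 in Cre-injected libraries and 5 and 2 in uninjected ones. Whether the counting used strand is not stated in the sources used here, so reads of these overlapping genes may not be separated.

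Of the proteins of the cell interior, rasip1 was measured on the fewest reads. Rasip1 (chromosome 16, 12517535 to 12560722, plus strand), an effector of Rap and Ras that mouse vessels need to open a lumen, had 6 and 15 normalised reads in Cre-injected libraries and 4 and 6 in uninjected ones. The groups shared a value, and the ratio of summed reads was 2.1 with a 95% exact interval of 0.947 to 4.99. No difference was detectable at this depth, and a fit with no filter put the log2 fold change at 0.84 ± 0.69 (SE). She (chromosome 16, 22587661 to 22603354, plus strand), which encodes an adaptor with an SH2 domain, had 75 and 84 in Cre-injected libraries, against 114 and 79 in uninjected ones. The groups overlapped, and the log2 fold change of -0.26 ± 0.25 (SE) became 0.01 without uninjected replicate 1. Crip2 (chromosome 17, 37445525 to 37474689, minus strand), a small LIM-domain protein, had 109 and 70 in Cre-injected libraries and 129 and 113 in uninjected ones. Its groups did not overlap, and its log2 fold change was -0.46 ± 0.25 (SE; 95% interval -1.0 to 0.07). Without Cre-injected replicate 1 it was -0.78 and was called.

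**Figure D2:**
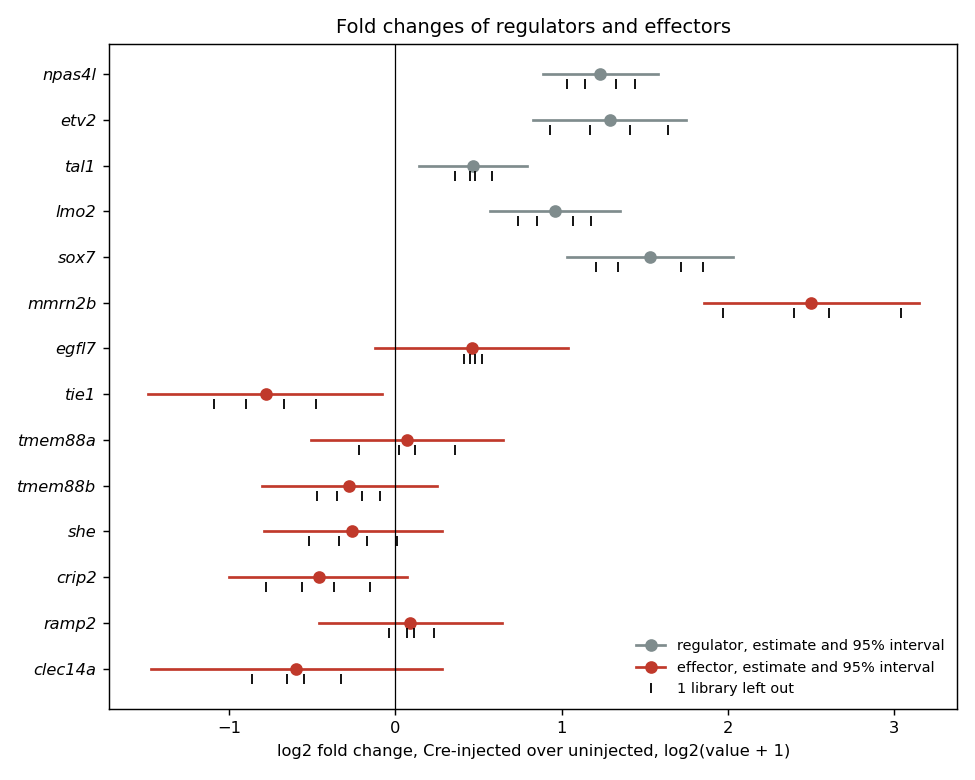
Log2 fold change of Cre-injected over uninjected embryos (x axis) for 5 regulator genes (grey) and the 9 effector genes in the fit (red); points are estimates, lines their 95% intervals from limma, and the ticks beneath each line the estimates with 1 library left out. Mmrn2b, at 2.5, lies to the right of etv2, at 1.29 (95% interval 0.83 to 1.75), and the intervals of the other 8 effectors end at or below 1.04.

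The question the comparison addresses is which vessel effectors went up beside etv2. The regulators sox7 and lmo2 rose together with etv2 and npas4l, with log2 fold changes of 1.53 ± 0.23 and 0.96 ± 0.18 (SE; adjusted p = 0.00135 and 0.00498), the call of lmo2 being lost without uninjected replicate 1 (0.74). Tal1 had 342 and 397 in Cre-injected and 263 and 269 in uninjected libraries (adjusted p = 0.0603), and it was called without Cre-injected replicate 1 (0.58). Among the effectors in the fit, mmrn2b had an estimate above that of etv2, and the upper bounds of the other 8 intervals lay below etv2's estimate. Etv2's own interval, 0.83 to 1.75, overlapped that of egfl7, which reached 1.04. Leaving out 1 library moved the etv2 estimate between 0.93 and 1.64. Those 8 effectors had a median log2 fold change of -0.27. All of these values come from the same libraries, and no difference between the fold changes of 2 genes was tested.

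Within groups, the order of the 2 libraries was set beside that of etv2, as a description only. Etv2 was higher in uninjected replicate 1 than in replicate 2, and so was npas4l, while mmrn2b was lower there. Lmo2 had 162 in uninjected replicate 1 and 219 in replicate 2, the same order as mmrn2b. Reads of mmrn2b per read of etv2 came to 1.23 and 1.21 in Cre-injected libraries, against 0.28 and 0.972 in uninjected ones. The Cre-injected libraries thus gave nearly the same ratio and the uninjected ones did not. For egfl7 the ratio was 0.161 and 0.127 in Cre-injected and 0.199 and 0.319 in uninjected libraries. Of the 10 effectors, 6 were higher in Cre-injected replicate 2, as etv2 was, 5 were higher in uninjected replicate 1, as etv2 was, and only she and clec14a did both. With 2 libraries a gene has 1 order or the other, and some orders rest on few reads, as for egfl7 at 47 and 46 in uninjected libraries. The share of all genes in etv2's order was not counted, so these counts show nothing particular to the effectors.

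**Figure D3:**
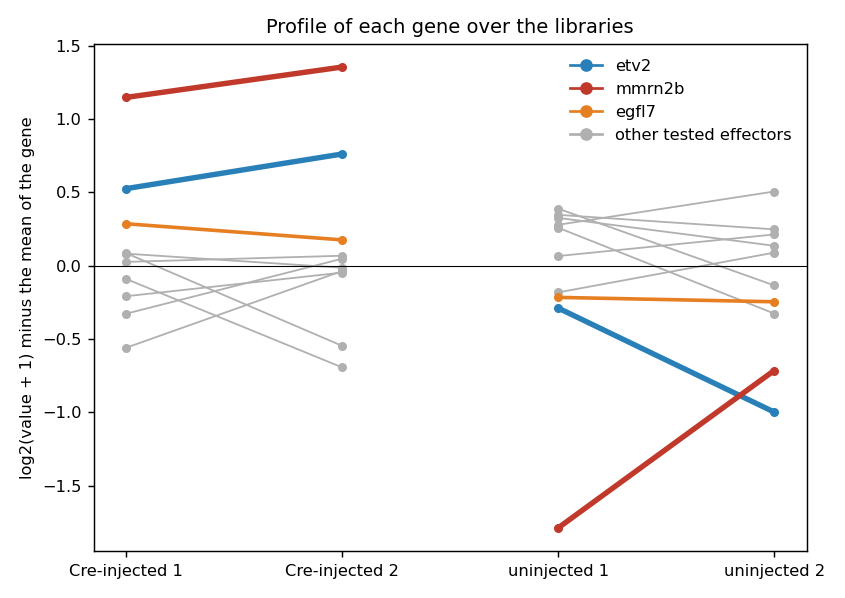
Log2(value + 1) of each gene in each library minus that gene's mean over the 4 libraries (y axis), for etv2, mmrn2b, egfl7 and the other 7 effectors in the fit; lines join the points of 1 gene within a group and mark no order. Mmrn2b and etv2 are both above their means in the Cre-injected libraries, and their lines cross between the uninjected ones.

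Likeness to etv2 was measured as the root mean square difference between these centred profiles over 4 libraries, where 0 is an identical profile. It was 0.11 for npas4l, 0.22 for sox7, 0.44 for lmo2 and 0.49 for tal1. The nearest effector was egfl7 at 0.49, rank 1727 of 16753 genes, followed by tmem88a at 0.62, ramp2 at 0.69, she at 0.77, tmem88b at 0.84, mmrn2b at 0.88, crip2 at 0.94, clec14a at 0.97 and tie1 at 1.13. Mmrn2b stood at rank 12502. The measure takes in the size of a change as well as its direction, so a rise larger than etv2's also adds distance. In the Cre-injected libraries mmrn2b was 1.148 and 1.355 above its mean, and etv2 0.526 and 0.762. Ramp2, with a log2 fold change of 0.09, came out nearer than mmrn2b. The ranks therefore do not order the effectors by how well they followed etv2. The nearest genes were then named among those with a mean of at least 50. Symbols with a dot or colon, or opening with capital letters, were left out as clone-like. The 5 nearest to etv2 were then mical3b, wnt11, atf5a, ved and slc3a2b, at 0.07 to 0.12. Npas4l, listed under the clone name CABZ01080135.1, was left out by this limit. At rank 17 it stood nearer to etv2 than slc3a2b, at rank 23. Under the same limits, the genes nearest to mmrn2b were prelid3a (0.18), cyp2aa2 (0.23), galnt9 (0.28), top1 (0.41) and mxra8a (0.43), with sox7 at 0.72, lmo2 at 0.80 and etv2 at 0.88. Ranked from mmrn2b, etv2 stood at 620 of 16753 genes.

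The partners and relatives of the effectors were set beside them in 8 lists of 129 entries, of which 103 genes were in the fit. Of these, 9 were higher and 6 lower, their median log2 fold change was -0.02, and 12.5% of all genes were called in either direction. By limma's unadjusted p under 0.05, 14.1% of all genes were higher and 14.3% lower, the shares to set beside the unadjusted counts of the lists. In the multimerin and emilin list, which also holds relatives of clec14a, 1 of 9 was higher and 1 lower (unadjusted, 2 and 5), with a median of -0.38. Mmrn2a, the paralogue of mmrn2b, had 72 and 93 in Cre-injected libraries, against 46 and 72 in uninjected ones (log2 fold change 0.50 ± 0.28 (SE), adjusted p = 0.272). Emilin2b fell, with 88 and 75 in Cre-injected libraries and 199 and 227 in uninjected ones (log2 fold change -1.38 ± 0.20 (SE), adjusted p = 0.00106), whichever library was left out. Emilin3a rose (log2 fold change 0.84), but its call was lost with no filter (adjusted p = 0.0642). The call was also lost without uninjected replicate 1 (log2 fold change 0.78) or 2 (log2 fold change 0.90). Cd248a and cd248b, whose human counterpart is another binder of multimerin 2, were not called, with log2 fold changes of -0.70 for cd248a (adjusted p = 0.0792) and -0.81 for cd248b (adjusted p = 0.135).

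Among the Tie receptor partners, 1 of 6 was higher and 1 lower (unadjusted, 2 and 1), with a median of 0.43. The ligand gene angpt1 fell, with 3 and 4 normalised reads in Cre-injected libraries and 28 and 24 in uninjected ones, a ratio of 0.135 (95% exact counting interval 0.0516 to 0.298; adjusted p = 0.012). Foxo1b, a forkhead factor whose mammalian counterpart is held in check by Tek signalling, rose, with 44 and 37 in Cre-injected and 12 and 18 in uninjected libraries (log2 fold change 1.40 ± 0.39 (SE), adjusted p = 0.0375). The call of angpt1 was lost without uninjected replicate 1 (-2.48) or 2 (-2.70). That of foxo1b was lost without either of these (1.12 and 1.67), without Cre-injected replicate 1 (1.27) and with non-robust shrinkage (adjusted p = 0.0519). Svep1, a matrix protein whose mammalian counterpart binds Tie1, had 215 and 145 in Cre-injected and 100 and 113 in uninjected libraries (adjusted p = 0.0509). It was called with the pseudocount of 4 (adjusted p = 0.048), no filter (0.036), a minimum of 20 (0.0471) and a replicate block (0.0338). Without Cre-injected replicate 2 it was also called, at a log2 fold change of 1.01. Tek itself had 19 and 18 in Cre-injected libraries, against 12 and 9 in uninjected ones (adjusted p = 0.331).

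In the adrenomedullin and RAMP list, 1 of 7 genes was lower and none was higher (by limma's unadjusted p under 0.05, 3 lower and 1 higher, beside 14.3% and 14.1% of all genes), and the median was -0.71. The gene that fell was ackr3b, for a receptor that in mammals scavenges chemokines and adrenomedullin, with 432 and 339 in Cre-injected libraries and 672 and 649 in uninjected ones (log2 fold change -0.79 ± 0.15 (SE), adjusted p = 0.00491). Its call was lost without uninjected replicate 1 (-0.76) or 2 (-0.81). The ligand gene adma had 19 and 18 in Cre-injected and 4 and 6 in uninjected libraries (adjusted p = 0.0743). The receptor genes that partner ramp2 were at 42 and 34 in Cre-injected and 32 and 11 in uninjected libraries for calcrla, and at 7 and 7 in Cre-injected and 22 and 18 in uninjected libraries for calcrlb (adjusted p = 0.202 and 0.107). These estimates had opposite signs, and neither gene was called.

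No gene of the Dishevelled and Wnt readout list, 9 in the fit with a median of 0.19, was called. Dvl2, for a Dishevelled protein of the kind that Tmem88 binds, had 1168 and 1064 in Cre-injected and 979 and 941 in uninjected libraries (adjusted p = 0.243). The Wnt-responsive genes lef1 and sp5a were not called either, lef1 with a log2 fold change of 0.28 (adjusted p = 0.168) and sp5a with 0.30 (adjusted p = 0.171). By limma's unadjusted p under 0.05, 2 of the 9 were higher and 0 lower, beside 14.1% and 14.3% of all genes. Without Cre-injected replicate 2 dvl2 (0.28) and lef1 (0.34) were called, as was sp5a without Cre-injected replicate 1 (0.46).

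On the junction and adhesion list, 1 of 22 genes was higher and none lower (by limma's unadjusted p under 0.05, 3 and 3, beside 14.1% and 14.3% of all genes), with a median of -0.07. The gene that rose was afdna, for the junction scaffold afadin, which binds Rap, with 1347 and 1442 in Cre-injected and 1107 and 1043 in uninjected libraries (log2 fold change 0.37 ± 0.11 (SE), adjusted p = 0.048). Its call was lost with equal library totals (adjusted p = 0.0986) and with totals that leave out mitochondrial and structural RNA (0.0746). Non-robust shrinkage (0.0621) and a replicate block (0.0656) ended it as well. Without uninjected replicate 1 or 2 the call was lost too, at log2 fold changes of 0.42 and 0.33. Cdh5, for VE-cadherin, had 70 and 106 in Cre-injected libraries, against 118 and 144 in uninjected ones, and was called only without Cre-injected replicate 2 (-0.89). Among other endothelial effectors, 2 of 28 were higher and 2 lower (unadjusted, 4 and 7), with a median of -0.16. Hspg2, for the basement membrane proteoglycan perlecan, rose, with 972 and 805 in Cre-injected libraries and 446 and 539 in uninjected ones (log2 fold change 0.85 ± 0.14 (SE), adjusted p = 0.00286). That call was lost without uninjected replicate 1 (0.71). Kdr was the other gene higher, and mrc1a and yrk were lower, all 3 losing the call without uninjected replicate 1 (0.54, -4.25 and -0.88) or 2 (0.69, -3.08 and -0.99). On the list of vessel and blood regulators 4 of 16 were higher (npas4l, etv2, lmo2 and sox7) and 1 lower, and by unadjusted p 6 and 1. The lower one, ets1, had a log2 fold change of -1.45 and lost the call with non-robust shrinkage (adjusted p = 0.0503) and without uninjected replicate 1 (-1.55) or 2 (-1.34), and stood at -0.86 without Cre-injected replicate 2. None of the 6 tested relatives of crip2, she and egfl7 was called. By limma's unadjusted p under 0.05 1 was lower and 0 higher, beside 14.3% and 14.1% of all genes. Megf6b had 96 and 97 in Cre-injected and 65 and 79 in uninjected libraries (log2 fold change 0.42, adjusted p = 0.25). Egfl6 had 105 and 131 in Cre-injected and 174 and 191 in uninjected libraries (adjusted p = 0.053), and 5 of the alternatives called it, with adjusted p between 0.00532 and 0.0489.

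**Figure D4:**
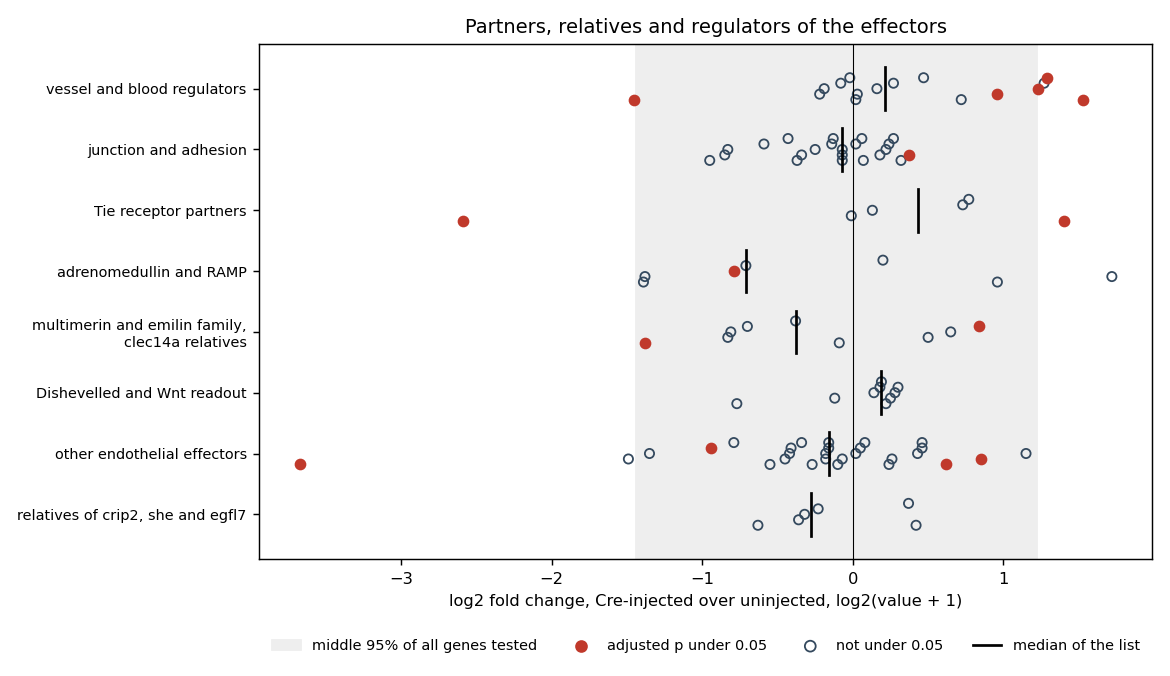
Log2 fold change of Cre-injected over uninjected embryos (x axis) for every tested gene of the 8 lists (rows); filled points passed adjusted p under 0.05, open points did not, black bars are list medians and the grey band spans -1.44 to 1.22, the middle 95% of all genes in the fit. Most points lie inside the band, and the list medians run between -0.71 and 0.43.

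The effectors lie on 8 chromosomes, and the genes beside them in the table were read in the same way. Of 20 flanking genes, 18 were in the fit, 3 were higher and none was lower, beside 6.35% and 6.19% of all genes. Whether neighbours differ from other genes was not tested. The tail of mmrn2b lies 2354 bases from that of bmpr1ab, a BMP receptor gene on the other strand, which had 743 and 602 in Cre-injected libraries and 502 and 471 in uninjected ones (log2 fold change 0.46 ± 0.14 (SE), adjusted p = 0.0509). Bmpr1ab was called with the pseudocount of 4 (adjusted p = 0.0486), no filter (0.0404), a minimum of 20 (0.0468) and a replicate block (0.043). Without Cre-injected replicate 2 it was also called, at a log2 fold change of 0.61. Agpat2, 5298 bases from egfl7, rose (0.61 ± 0.12 (SE), adjusted p = 0.00794), a call lost without uninjected replicate 1 (0.59) or 2 (0.63). Tmem88a and tmem88b each follow a gene for a histone demethylase of the Kdm6b type on the same strand. Of these, kdm6bb rose beside tmem88a (0.46 ± 0.13 (SE), adjusted p = 0.037), a call that 5 alternatives ended (adjusted p of 0.0524 to 0.344). Kdm6ba, beside tmem88b, had 7199 and 6663 in Cre-injected and 5637 and 5640 in uninjected libraries (adjusted p = 0.0838), and it was called without Cre-injected replicate 1 (0.24) or 2 (0.35). On the other side of tmem88b, si:dkey-85k7.7 rose (1.39 ± 0.18 (SE), adjusted p = 0.000679). Cox6b2, beside rasip1, was not called (-0.46 ± 0.15 (SE), adjusted p = 0.0654). It was called lower with equal library totals (0.0435), totals without mitochondrial and structural RNA (0.0431) and a replicate block (0.0444). Without Cre-injected replicate 2, cox6b2 (-0.72) and nat14 (-0.79), which flank rasip1, were called lower. Without Cre-injected replicate 1, ttc6 beside clec14a was called lower (-2.72) and abcc6b.2 beside ramp2 higher (0.96).

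The embryos were sampled whole, so fewer cells of a type and less RNA per cell cannot be told apart in any of these values. The 4 defining markers of endothelium that were found, etv2, cdh5, kdrl and fli1a, were present in every library and summed to 827 and 932 normalised reads in Cre-injected libraries, against 758 and 654 in uninjected ones. Of these, etv2 was called higher and the other 3 were not called. Without etv2 the sums turned round, to 411 and 442 in Cre-injected libraries, against 522 and 510 in uninjected ones. Markers of other tissues moved with the groups too, and their counts stand beside 6.19% of all genes called lower and 6.35% called higher. Of 7 skeletal muscle markers 5 were lower, with sums of 2157 and 1908 in Cre-injected and 3500 and 3363 in uninjected libraries. Of 4 neural and 4 epidermal markers 3 each were lower, with neural sums of 4248 and 4120 in Cre-injected libraries and 5504 and 5563 in uninjected ones, and epidermal sums of 97854 and 119677 in Cre-injected libraries and 164899 and 159057 in uninjected ones. Of 6 tested red-cell markers 3 were lower, with sums over 7 genes of 466 and 487 in Cre-injected and 674 and 673 in uninjected libraries. By limma's unadjusted p under 0.05, 7 muscle, 4 red-cell, 4 neural and 4 epidermal markers were lower and 0 higher, beside 14.3% of all genes lower. Without uninjected replicate 1 or 2, fewer markers of each of these tissues were called lower, and no neural or epidermal one was. Without Cre-injected replicate 1 or 2, as many or more of each were called lower. Of 3 myeloid markers 1 was higher and 1 lower (sums of 714 and 880 in Cre-injected, 688 and 611 in uninjected libraries), and neither was called without uninjected replicate 2. None of 3 tested heart markers was called (sums over 5 genes of 1328 and 1212 in Cre-injected, 1283 and 1206 in uninjected libraries), with 2 lower by limma's unadjusted p under 0.05, beside 14.3% of all genes, and 1 called lower without Cre-injected replicate 1. Of 3 yolk layer markers 1 was lower (sums of 76348 and 55330 in Cre-injected, 51367 and 51048 in uninjected libraries), and without either Cre-injected library 1 was higher. The yolk layer sums were mostly apobb.1, with 68049 and 45384 in Cre-injected and 40542 and 39553 in uninjected libraries. The yolk layer marker called lower, apoa4a, had 7 and 3 in Cre-injected libraries, against 176 and 262 in uninjected ones. Of the 37 markers found, slc4a1a and myl7 were at 0 in at least 1 library. The part of these differences in the values of the effectors was not tested.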

How the data were processed

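The deposited table holds a whole-number score per gene and library. From gaps and repeats among the whole numbers, the score is taken as the authors' read number per gene after scaling each library and rounding, which no source used here states. Total RNA (10 ng) was made into stranded libraries and read as single ends of 75 bases, per the labels. The submitters' processing notes name STAR 2.6.0c, featureCounts 1.6.0, DESeq2 1.14.1 and GRCz11, without roles.

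Because these are not raw counts, limma 3.58.1 in R 4.3.3 was fitted to log2(value + 1), using its mean-variance trend and robust option. A gene entered the fit when 2 or more libraries had a value of 10 or more. P-values were Benjamini-Hochberg adjusted over all of these genes. Intervals of fold changes are limma's 95% intervals, unadjusted, and intervals of ratios are exact (Clopper-Pearson), treat the values as counts and cover counting error only. An exact permutation test of 2 against 2 libraries cannot give a two-sided p below 0.333. As a check of the fit, counts were simulated over 16395 genes with a spread set in advance and not estimated from these libraries. In it, 69 of 99 genes changed 2-fold, 93 of 100 changed 4-fold and 5 of 16196 unchanged genes were called. The real spread may differ, so these are not rates for these data.

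The genes and lists were chosen with earlier results of these data known. The naming rule took all effectors, npas4l, etv2, tal1, lmo2, sox7, hsp70l, every called gene of a list or otherwise its 2 of smallest p, and the 5 genes nearest in profile. Other named list members were picked after their values were seen. Genes were matched by symbol, and npas4l, ets1, hhex and ramp1 by identifier. Of 129 list entries, 17 were not found by name and were not analysed here. Promoter sequences were not used here. Figures were drawn with matplotlib 3.10.9.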

Additional observations from a re-analysis of the deposited data

How the results depend on the processing

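Under the 9 alternatives that kept all libraries (scalings, pseudocounts, filters, non-robust shrinkage and a replicate block), mmrn2b was the only effector called, with a log2 fold change between 2.46 and 2.51, and no effector reversed with a call. The labels do not say whether same-numbered samples were handled together. Their deviations correlated at -0.031 over 16754 genes. Mitochondrial ribosomal RNA nevertheless followed the number. It made up 12.0% of the summed values in Cre-injected replicate 1 and 12.3% in uninjected replicate 1. In replicate 2 it made up 16.1% in the Cre-injected and 16.4% in the uninjected library. A shared batch was not tested. The replicate block gave 1132 genes higher and 1121 lower, against 1064 and 1037 without it, and 9 and 8 list genes, against 9 and 6. Leaving out 1 library moved the counts over all genes between 228 and 2064 higher and between 210 and 1871 lower. Over the effectors the counts ran between 0 and 1 higher and between 0 and 2 lower, and over the lists between 3 and 15 higher and between 1 and 12 lower. A fit with 1 library in a group assumes that it varies like the other group, so such counts also depend on which pair sets the spread. Scaling without mitochondrial and structural RNA gave 852 higher and 1127 lower and moved the median of all genes by -0.039. Calls of 8 list genes changed under some alternative that kept all libraries. Depth limits the effectors rasip1 and clec14a, and the partner genes tek, angpt1, adma and calcrlb, together with mrc1a, which stood under 30 normalised reads in every library.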
